A study of Mus musculus with 108 samples.

Results

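Cullins are the scaffolds of the largest class of ubiquitin ligases, and the 10 genes described here are the set built around Cul3: the 8 cullins Cul3, Cul1, Cul2, Cul4a, Cul4b, Cul5, Cul7 and Cul9, and the RING finger partners Rbx1 and Rnf7. They were chosen by name, and all 10 were found among the 53465 genes of the count table. RNA was sequenced from cortex (CX), hippocampus (HIP) and cerebellum (CB) in late gestation (E17.5), at postnatal day 7 (P7) and in adults (P35), from wild-type (WT) mice and from heterozygous mice carrying 1 mutated copy of Cul3 (Cul3+/-, HET). The strain label of every group is C56Bl/6N, and the study names the background C57BL/6N. The HET line was bred from 1 founder with a 1-bp insertion in exon 6 made by genome editing, so every tissue carries the mutation and only 1 mutated allele was studied. The series holds 108 libraries from 36 mice, and the comparisons used the 3 regions of 34 mice: 6 WT and 6 HET mice at E17.5 and P7, and 5 of each in adults. The mice P35_22 and P35_23 were left out because their labelled genotypes are the opposite of those in the study's sample table. The sex of the mice was not given with the labels.

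A cullin-RING ligase is built on 1 cullin. The cullin's far end binds a RING protein, which brings in the ubiquitin-conjugating enzyme, and its near end binds an adaptor and a substrate receptor, which pick the protein to be tagged. Attachment of the small modifier NEDD8 switches the ligase on, and the exchange factor Cand1 lets cullins trade receptors, so that the scaffolds of the family share a common machinery. CUL3 binds its substrates through BTB-domain receptors, and the small GTPase RhoA, a regulator of the actin cytoskeleton, is among them. The question put to the data is whether any other cullin or RING partner shifted when Cul3 transcript was lost.

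On GRCm38, Cul3 spans chr1:80264923-80340480 on the minus strand, Cul1 chr6:47453398-47526139, Cul4a chr8:13105621-13147940, Cul4b chrX:38533274-38576196 and Cul5 chr9:53614582-53670014. Cul7 (chr17:46650337-46664364) and Cul9 (chr17:46500572-46546388) lie near each other on opposite strands. Rbx1 lies at chr15:81466296-81476369 and Rnf7 at chr9:96470937-96478675.

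The site cut to make the mutation lies in Cul3 and is shown because it sets which of the members was altered. On GRCm38 it spans chr1:80287041-80287063 on the minus strand, inside exon 6 of the 16 exons of transcript Cul3-201. The cut falls after codon 245 of 768. The same bases are exon 5 of 15 in Cul3-202, and 2 of the 6 annotated Cul3 transcripts hold them. The guide was compared with every annotated transcript of the other members, on both strands, at positions followed by NGG. The closest stretch, with 6 mismatches, was in the last exon of Cul5, at chr9:53617882-53617904. Cul4a and Cul7 came next with 7 mismatches, and the remaining members had 8 to 10. In the pair of sequences below, the last 3 bases in capitals are the PAM, and the other capitals mark bases at which Cul5 differs from the guide.
Cul3 guide site: ggattaatgaggaaatagagCGG
Cul5 closest stretch: TgatAaaGgagCaGatGgagTGG

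Libraries held between 15126093 and 44411259 reads assigned to genes, and every member had enough reads to be tested in each comparison. The labelled regions were checked against marker genes. En2, a cerebellar transcription factor, lay between 68.3 and 155 CPM (counts scaled to the effective library size) in CB and at or below 1.0 CPM in CX and HIP. Wnt8b, a hippocampal marker of the embryo, was at or below 0.52 CPM in adult HIP. Choroid plexus RNA varied widely between libraries, with Ttr between 1.88 and 4455 CPM in HIP and between 0.11 and 2860 CPM in CB. Because tissue was sequenced in bulk, fewer cells of a type and less RNA per cell cannot be told apart. Rbx1 and Rnf7 need more care than the other members. Their counts were not whole numbers in 92.6% and 99.1% of libraries, which happens when reads are shared with other genes, and a processed pseudogene, Rbx1-ps, is in the same table. Exons of Cul1 and Cul5 overlap an annotated gene on the opposite strand (A930035D04Rik and Gm16124), and whether strand was used in counting is not given in the sources used here.

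Cul3 itself was lower in every HET group. In the cortex at E17.5, the 6 WT libraries ran from 191.4 through a median of 195.9 to 205.2 CPM, and the 6 HET libraries from 110.9 through 115.9 to 120.9 CPM. In P7 cortex the values were 179.2, 187.7 and 199.6 CPM in WT, against 93.8, 105.0 and 107.9 CPM in HET. In adult cortex the 5 WT libraries lay at 161.5, 171.0, 189.9, 192.2 and 203.1 CPM, and the 5 HET libraries at 92.6, 92.7, 93.0, 95.4 and 99.9 CPM. The highest HET library was below the lowest WT library at each age. In hippocampus, WT libraries ran from 168.2 through 188.3 to 200.8 CPM at E17.5 and HET libraries from 99.4 through 106.5 to 115.2 CPM, and in adult hippocampus the values were 179.3, 197.3 and 213.4 CPM in WT against 93.6, 99.8 and 104.4 CPM in HET. In P7 cerebellum WT libraries lay between 198.0 and 220.2 CPM (median 208.9) and HET libraries between 110.5 and 121.2 CPM (median 114.3). The separation was the same in every region, so that the WT and HET ranges of Cul3 did not overlap in any of the 9 period-by-region groups. Mean HET levels were between 50.4% (adult hippocampus) and 61.3% (adult cerebellum) of the WT means. In adult cerebellum the WT library of mouse P35_17 was lowest, at 168.4 CPM, against 201.8 to 216.5 CPM in the other WT libraries.

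Each group was tested on its own with edgeR's quasi-likelihood test, and a gene was called where its p, adjusted by the Benjamini-Hochberg method, did not exceed 0.1. In each of these 9 tests, which had no block for pairs of mice, Cul3 was the single gene called. That is 0.00603% of the genes tested in E17.5 CX, 0.00586% in E17.5 HIP and 0.00568% in E17.5 CB. It is 0.00566%, 0.00563% and 0.0057% in P7 CX, HIP and CB, and 0.00569%, 0.00584% and 0.00584% in P35 CX, HIP and CB. The log2 fold change of Cul3 (HET minus WT) was -0.79, -0.82 and -0.79 in CX, HIP and CB at E17.5. It was -0.86, -0.89 and -0.83 at P7, and -0.94, -0.99 and -0.74 in adults. Without WT replicate 3 (mouse P35_17) the value in adult cerebellum was -0.80. The number of genes called depended on the fit: with the replicate number as a block, 55 were called in E17.5 CX, DESeq2 called 218 in P35 CB and 5 RUVs factors gave 472 in P35 HIP. Standard errors of Cul3 were between 0.03 and 0.07, and adjusted p-values between 8.80e-09 (P7 CB) and 0.00263 (P35 CB).

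No other member was called in any group. Over 81 tests (9 members in 9 groups) the log2 fold changes ran from -0.17 to 0.26, with 35 above and 46 below 0, and no edgeR adjusted p was below 0.344. An unadjusted p under 0.05 was seen in 2 of the 81 tests, the same 2 whose edgeR 95% intervals excluded 0. Those tests were in P7 CB and P35 CB, where 857 of 17532 and 2459 of 17110 genes had such a p. Over the 9 groups the lowest such number was 277 of 16594 genes (E17.5 CX). Which intervals excluded 0 depended on the fit. In the limma-voom fit described below, the log2 intervals that did were in P35 CB. They were those of Rnf7 (0.11 to 0.48), Cul2 (0.009 to 0.26) and Cul5 (0.01 to 0.22). The interval of Cul4b in P7 CB (-0.03 to 0.21) included 0 in that fit. The P35 CB values include the low WT library of mouse P35_17. The number of other members called was also 0 with DESeq2, with a likelihood ratio test and after removal of unwanted variation. In each of the 9 groups, the WT and HET ranges of every one of these 9 genes overlapped. How many of all genes tested had overlapping ranges was not counted, so the overlap does not show that a gene was unchanged. The plot of CPM by library shows the split in Cul3 and the overlap in its relatives.

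**Figure D1:**
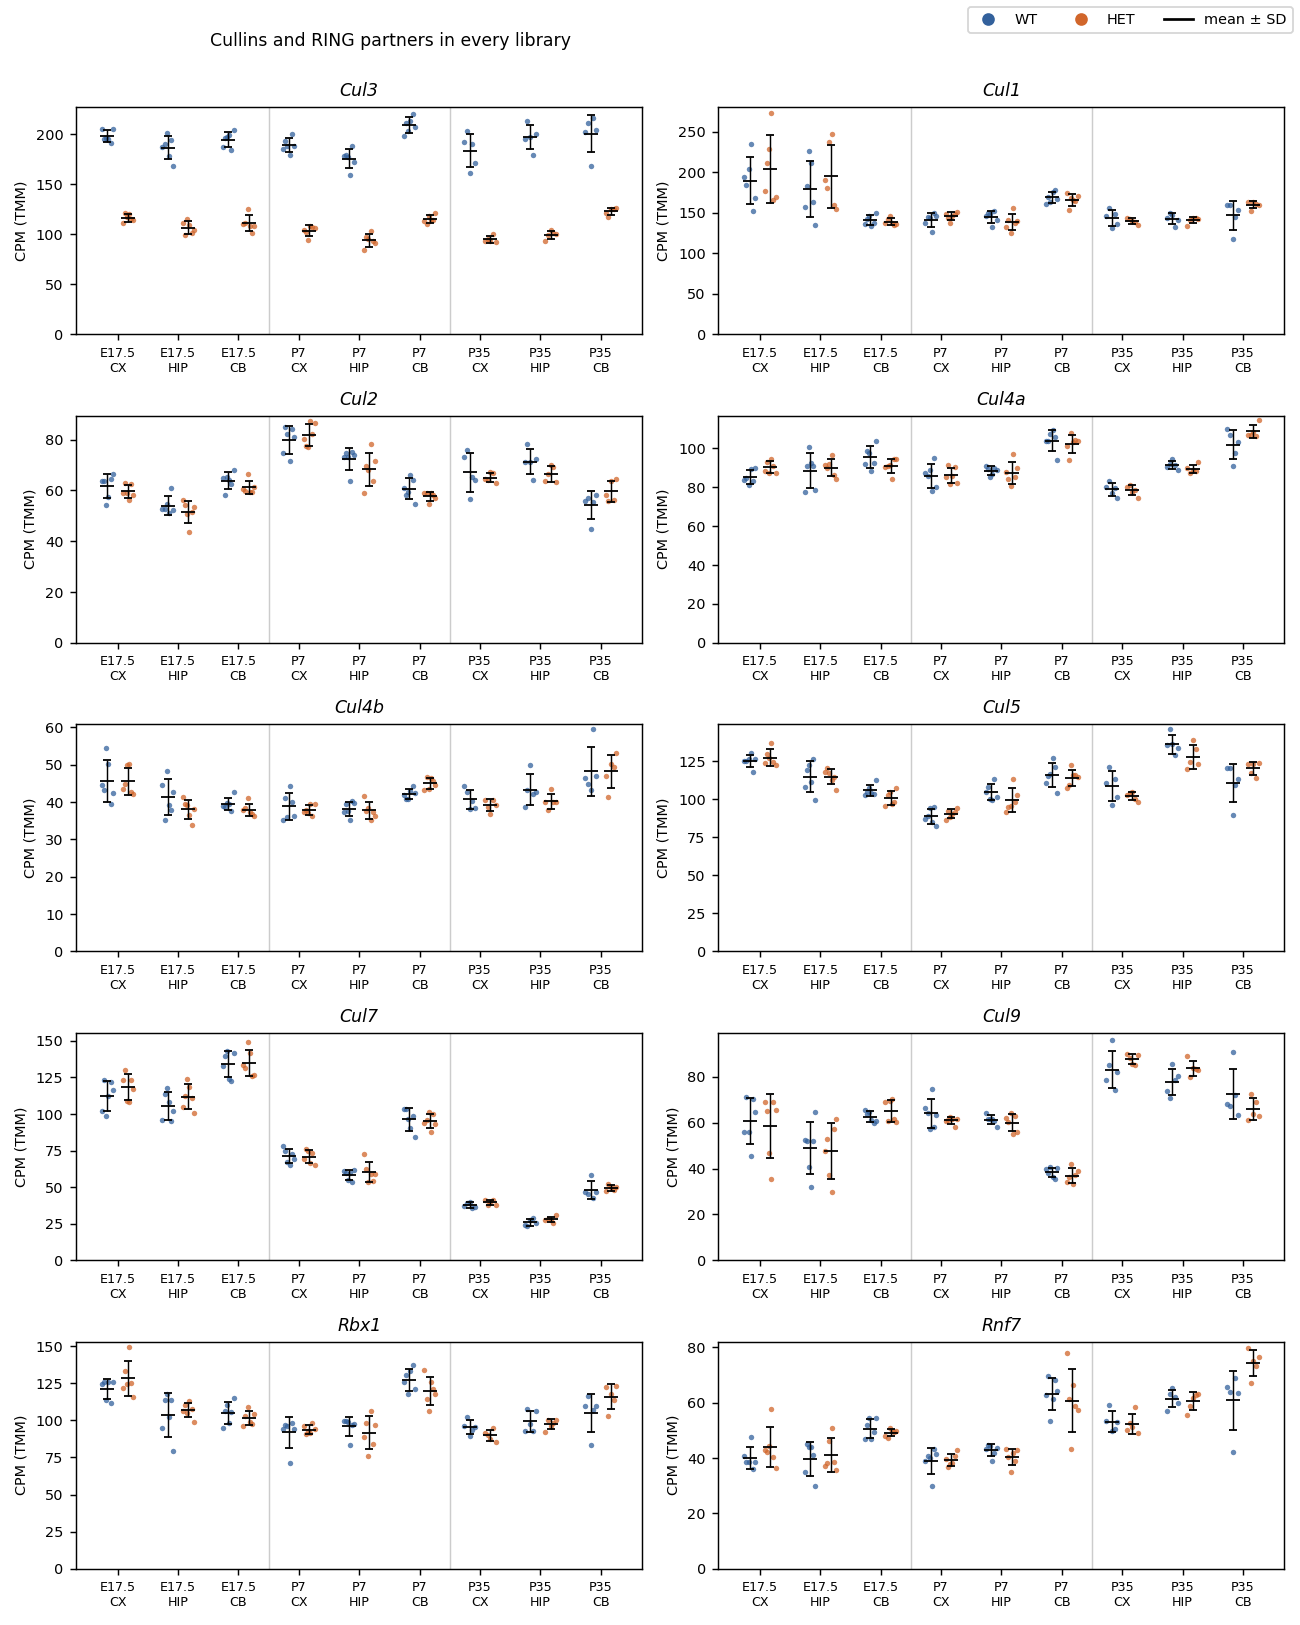
CPM on TMM library sizes (vertical axis, from 0) of the 10 members in the 9 period-by-region groups (horizontal axis), with 1 point per library, WT in blue and HET in orange, and bars for the mean and SD of 5 or 6 libraries. WT and HET points separate in all 9 groups for Cul3 and overlap in all 9 groups for the other 9 genes.

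A shift shared by all groups was sought in a single limma-voom fit to the libraries of all 34 mice, with the mouse as a block since each mouse gave 3 regions. In the mean over the 9 groups, 14 of 20859 genes were called (0.0671%), a count that ran from 4 (without mouse P35_31) to 29 (without mouse P35_27) on leaving out 1 mouse. Cul3 was 1 of them and no other member was. The median over the other 9 members was -0.0019 on the log2 scale, the same as over all genes. The mean log2 fold change of Cul3 was -0.85, with a 95% interval from -0.89 to -0.82 (limma adjusted p = 3.15e-62). On the linear scale it fell by 44.6%, with bounds at -45.9% and -43.3%.

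Cul1 carries the SCF ligases, which read phosphorylated substrates through Skp1 and F-box proteins. In P7 cortex, taken as the example for each gene here, it ran from 125.8 through a median of 144.7 to 149.9 CPM in WT and from 137.4 through 147.3 to 150.9 CPM in HET. Its mean difference over the 9 groups was 1.71%, with an interval from -2.54% to 6.15%. Cul2 and Cul5 bind their receptors through elongins B and C, Cul2 with the VHL protein among them and Cul5 with the SOCS box proteins. Cul2 in P7 cortex lay at 71.4, 81.6 and 85.1 CPM in WT (lowest, median, highest) and at 77.1, 81.2 and 87.3 CPM in HET. Cul5 lay at 82.1, 88.1 and 94.5 CPM in WT and at 86.1, 90.98 and 94.5 CPM in HET. The ranges of both genes overlapped. In the mean over groups Cul2 stood at -2.27% (-5.09% to 0.632%) and Cul5 at -1.30% (-3.76% to 1.22%). None of these 3 intervals excluded 0.

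Cul4a and Cul4b are close paralogs that use Ddb1 as adaptor, and Cul4b is X-linked. Cul4a in P7 cortex ran from 77.95 to 94.96 CPM in WT and from 81.9 to 91.3 CPM in HET, and Cul4b from 35.1 to 44.4 CPM and from 36.2 to 39.5 CPM, with the HET range inside the WT range for both. In the mean over groups Cul4a gave the narrowest interval of the 9, 0.430% with bounds at -1.79% and 2.70%. Cul4b stood at -2.21% (-5.38% to 1.07%). Cul7, which works with the F-box protein Fbxw8 and with Obsl1 and Ccdc8, had the lowest p-value of the 9, at 3.21% (-0.0701% to 6.59%, unadjusted p = 0.0551, limma adjusted p = 0.916). Its adult hippocampal libraries, the lowest group of that gene, ran from 23.3 to 28.96 CPM in WT and from 25.5 to 30.5 CPM in HET. Cul9, a very large cullin with a RING-between-RING module of its own, stood at -1.45% (-6.77% to 4.17%).

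Rbx1 is the RING partner of most cullins, Cul3 included, and Rnf7 is the partner of Cul5. In P7 cortex Rbx1 lay between 71.3 and 98.3 CPM in WT and between 90.5 and 98.04 CPM in HET, and Rnf7 between 29.9 and 43.2 CPM and between 36.9 and 42.9 CPM. The lowest WT value of both came from mouse P7_C2_2. In the mean over groups Rbx1 differed by -0.129% (-3.48% to 3.33%) and Rnf7 by 1.93% (-2.66% to 6.74%). Adjusted p-values of the 9 members ran from 0.916 to 0.999. The outermost bounds of the 9 intervals were thus -6.77% (Cul9) and 6.74% (Rnf7), against a fall of 44.6% in Cul3, as the plot of genotype effects shows. A p-value that misses the threshold does not show that a gene was unchanged, but shared shifts beyond these bounds lie outside the 95% intervals.

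**Figure D2:**
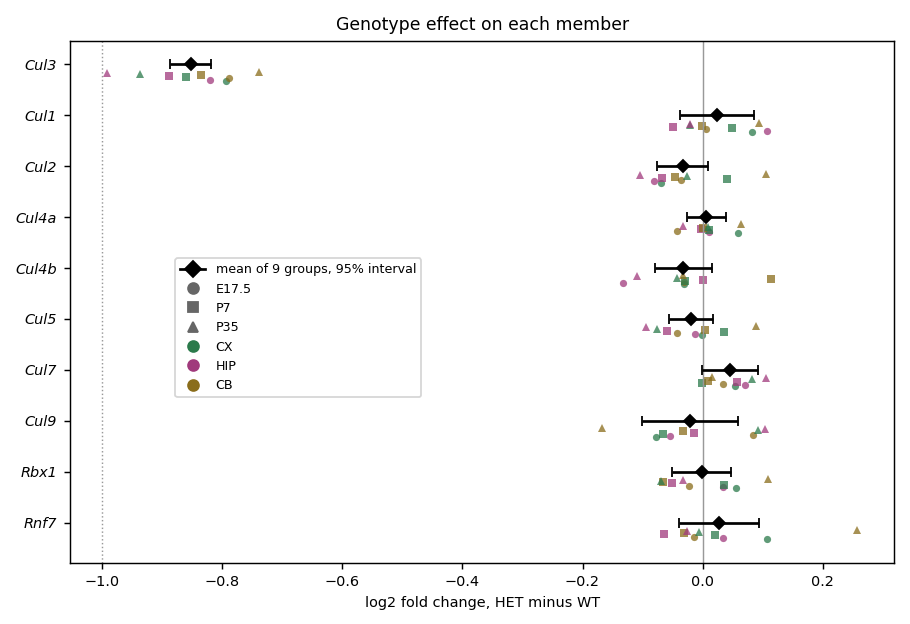
Log2 fold change, HET minus WT (horizontal axis), for each member (vertical axis). Black diamonds with bars are the limma-voom mean over the 9 groups with its 95% interval, and small symbols are the 9 separate edgeR estimates by period (shape) and region (color). Cul3 lies at -0.85 and the diamonds of the other 9 members between -0.03 and 0.05.

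In the separate edgeR tests a pair of single-group values came closest to a difference. Both were in cerebellum, where medians of choroid plexus RNA also differed between the genotypes. The medians of all 3 choroid plexus markers (Ttr, Folr1 and Kl) were higher in HET, with overlapping ranges. In P7 cerebellum Ttr ran from 0.11 through a median of 2.59 to 1427 CPM in WT and from 0.49 through 1413 to 2633 CPM in HET. In adult cerebellum it ran from 0.46 through 7.04 to 2860 CPM in WT and from 1.98 through 477 to 1975 CPM in HET. The part of this tissue in the values below was not tested. Cul4b in P7 cerebellum ran from 40.8 through 42.2 to 44.4 CPM in WT and from 43.2 through 45.1 to 46.7 CPM in HET, so that the ranges overlapped by a small margin. Its log2 fold change was 0.11 ± 0.04 (SE), with an unadjusted p of 0.00832 and an edgeR adjusted p of 0.915. With the level of Xist, the X-inactivation transcript, as a covariate, the log2 fold change was 0.12 (adjusted p = 0.814). In the other 8 groups the log2 fold change of Cul4b was between -0.13 and -0.00.

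Rnf7 in adult cerebellum lay at 42.2, 63.5, 64.0, 65.6 and 69.0 CPM in WT and at 67.2, 73.3, 75.2, 76.6 and 79.6 CPM in HET. Its log2 fold change was 0.26 ± 0.11 (SE), with an unadjusted p of 0.0436 and an edgeR adjusted p of 0.344. The lowest WT value came from mouse P35_17, and without that library the log2 fold change was 0.15 (adjusted p = 0.363). This cerebellar library also stood apart in some marker genes, though the cerebellar markers did not move together. Zic1, a granule cell transcription factor, was at 802 CPM against 987 to 1015 CPM in the other 4, and En2 at 126 against 142 to 152 CPM. Pax2 was higher, at 3.91 against 0.61 to 1.56 CPM, and Cbln1 lay inside the range, at 741 against 609 to 806 CPM. Zbtb20 was at 266 CPM against 86.9 to 204 CPM. In adult cerebellum the median log2 fold change of the 9 members was 0.09, against 0.00 over all genes tested there. Without WT replicate 3 (mouse P35_17) the members ran from -0.07 to 0.15, with a median of 0.03.

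Whether the genotype effect varied among the 9 groups was asked with an F test in the same limma fit. It called 0 of 20859 genes (0%), with 893 genes at an unadjusted p under 0.05. Cul3 had an F of 3.31 (unadjusted p = 0.00239, limma adjusted p = 0.992). Cul5 followed with an unadjusted limma p of 0.0696, and the adjusted p of each other member rounded to 1. The span of Cul3 effects in this fit, from -0.99 in adult hippocampus to -0.71 in adult cerebellum, therefore did not pass the test after adjustment. The adult cerebellar end includes the low WT library of mouse P35_17, and the F test was not repeated without that mouse.

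The rest of the machinery was read from 24 further genes: the distant cullin relatives, the adaptors, the ubiquitin-conjugating and ariadne enzymes, the NEDD8 pathway and the exchange factors. All 24 were tested in every group. Among all genes tested, those at an unadjusted p under 0.05 numbered from 277 of 16594 (E17.5 CX) to 2459 of 17110 (P35 CB). None of the 24 was called in any of the 216 genotype tests, of which 7 had such a p. After removal of 5 factors of unwanted variation (RUVs), 1 was called in P7 cerebellum: Anapc11, the RING subunit of the anaphase-promoting complex, at a log2 fold change of -0.18 (edgeR likelihood ratio test, adjusted p = 0.0174), against -0.15 (adjusted p = 0.978) without it. In the mean over groups, 1135 of 20859 genes had an unadjusted p under 0.05. Of the 24, 0 were called and 2 had such a p, with 13 below and 11 above 0. Their mean log2 fold changes ran from -0.05 to 0.14, with a median of -0.0054 against -0.0019 over all genes.

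With Cul3 lower in HET and no other cullin called, the makeup of the cullin pool differed between the genotypes. To compare genes with each other, CPM was divided by the length of all annotated exons. By this measure Cul3 and Cul1 were the most abundant cullins in WT brain, at 36.01 to 42.8 and 34.9 to 46.9 CPM per kb over the 9 group means. Cul2 (12.8 to 18.9), Cul4a (12.3 to 16.2), Cul5 (10.9 to 16.7) and Cul4b (9.86 to 12.4) formed a middle set. Cul9 ran from 3.14 to 6.82 CPM per kb and Cul7 from 3.47 to 18.1 CPM per kb. Cul9 was the lowest cullin in 7 of the 9 groups, and Cul7 in adult cortex and hippocampus.

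In WT cortex Cul3 made up 25.0% ± 1.1 (SD, n = 6) of the summed cullin level at E17.5, 27.3% ± 0.16 (n = 6) at P7 and 27.4% ± 0.73 (n = 5) in adults. In HET cortex its share was 15.9% ± 0.76, 16.9% ± 0.48 and 16.6% ± 0.47. The HET share was lowest in E17.5 hippocampus (15.7%) and highest in adult cerebellum (18.6%). The summed level of the other 7 cullins in cortex was 122 ± 6.8 CPM per kb in WT and 127 ± 10 in HET at E17.5, 103 ± 4.0 and 104 ± 2.0 at P7, and 99.5 ± 6.0 and 97.4 ± 1.7 in adults. In adult cerebellum it was 104 ± 7.0 and 110 ± 3.2. In all 9 groups the means of these sums differed by less than 1 SD of the WT libraries. That SD describes single libraries and is wider than the error of a mean, so the difference of the sums was not tested by it. In adult cerebellum the sums ran from 91.4 to 108 CPM per kb in WT and from 106 to 114 in HET. The lowest WT sum there was that of mouse P35_17. With the longest transcript in place of all exons, Cul1 stood above Cul3 in every WT group and the WT share of Cul3 in E17.5 cortex was 20.7%, so the order of these genes depends on the length used.

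**Figure D3:**
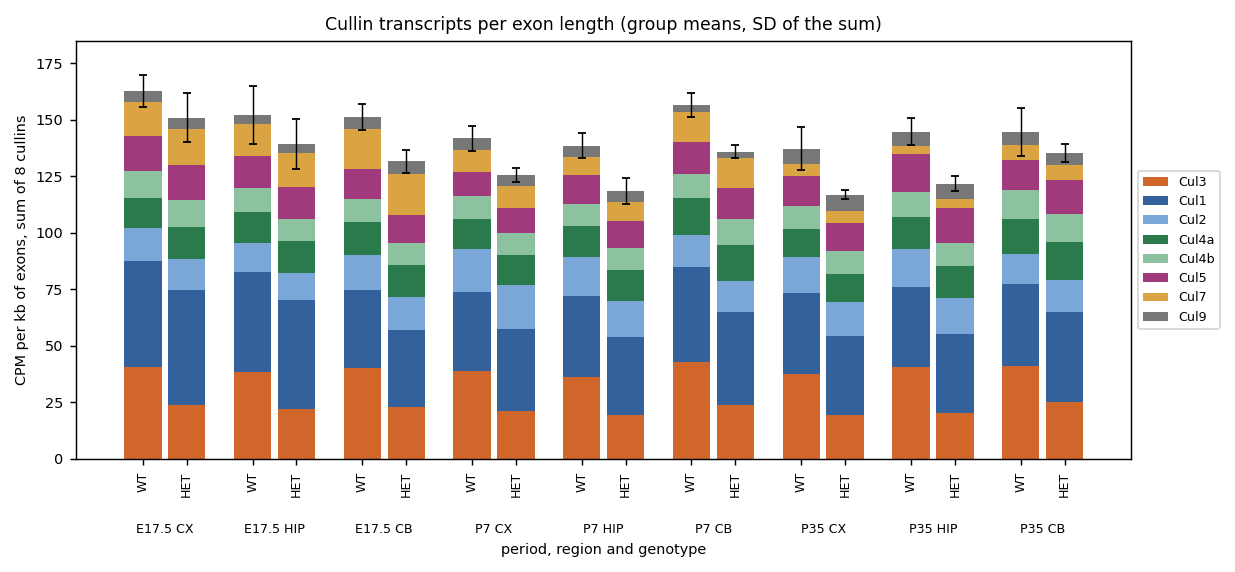
Summed CPM per kb of annotated exons (vertical axis, from 0) of the 8 cullins, stacked by gene as group means, for WT and HET in the 9 groups (horizontal axis), with bars for the SD of the sum over 5 or 6 libraries. The Cul3 layer is 36.01 to 42.8 CPM per kb in WT groups and shorter in every HET group, while the layers above it are similar in both genotypes.

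Variation with age and region was read from WT mice alone. Cul3 had the lowest ratio of highest to lowest group mean among the 10 members. Its WT group means ran from 175.5 CPM (P7 hippocampus) to 208.7 CPM (P7 cerebellum), 1.19-fold. The library ranges of all neighbors in the order of the 9 groups overlapped. That also held for Cul2, Cul4a, Cul4b, Cul9 and Rbx1, so overlap of neighbors does not set Cul3 apart. For Cul4b the ratio of highest to lowest group mean was 1.26, for Cul4a 1.32, for Cul1 1.34, for Rbx1 1.39, for Cul2 1.48, for Cul5 1.53 and for Rnf7 1.62. Cul9 varied 2.17-fold and Cul7 5.21-fold. The WT means of Cul7 fell from the 3 embryonic groups, through P7, to the adult groups, with 4 of the 8 neighboring pairs in that order not overlapping.

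Between periods, most genes of the transcriptome changed, so counts of members have to be read against that background. From E17.5 to P7, 1 member rose and 6 fell in CX, where 39.5% of genes tested rose and 42% fell. In HIP 2 rose and 4 fell (37.5% and 39.3% of genes), and in CB 7 rose and 3 fell (37.1% and 38.4%). From P7 to P35, 3 rose and 2 fell in CX (35.4% and 37%), 5 rose and 1 fell in HIP (36.8% and 37.5%), and 2 rose and 4 fell in CB (39.7% and 40.2%). Both steps in a region share their P7 libraries. Of the 24 other ligase genes, 4 rose and 14 fell in CX, 5 and 10 in HIP, and 11 and 8 in CB between E17.5 and P7. Between P7 and P35, 4 rose and 10 fell in CX, 7 and 11 in HIP, and 4 and 13 in CB.

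Cul7 fell at every step. In WT cortex it went from a median of 114.3 CPM at E17.5 (98.6 to 123.4) to 71.1 CPM at P7 (65.1 to 77.8). The 5 adult cortical libraries lay at 35.4, 36.2, 37.2, 39.4 and 40.0 CPM. The 3 ages did not overlap. The log2 fold change to P7 was -0.72, -0.88 and -0.50 in CX, HIP and CB, and from P7 to P35 it was -0.89, -1.17 and -1.02, with SEs from 0.06 to 0.08 (largest edgeR adjusted p = 1.51e-06). HET mice had Cul7 medians of 120.3, 71.3 and 39.6 CPM in cortex at the 3 ages.

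Cul9, often paired with Cul7 for their sequence similarity, took another path. In cerebellum it fell from a median of 62.5 CPM at E17.5 to 38.8 CPM at P7 (log2 fold change -0.73 ± 0.05), with 6 P7 libraries between 35.5 and 40.5 CPM, all below the embryonic minimum of 59.8 CPM. It then rose to 63.5, 67.2, 68.2, 72.3 and 91.0 CPM in adults (0.90 ± 0.09). The highest of these is again mouse P35_17. In cortex the change to P7 was 0.02 (edgeR adjusted p = 0.860), followed by a rise of 0.41 ± 0.07 to P35, and in hippocampus the later rise was 0.36 ± 0.05.

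Among the scaffolds with elongin adaptors, Cul2 rose and Cul5 fell in the forebrain between E17.5 and P7. Cul2 rose by 0.32 ± 0.07 in CX and 0.39 ± 0.06 in HIP on the log2 scale. Cul5 fell by 0.56 ± 0.05 and 0.16 ± 0.06. From P7 to P35 Cul5 rose by 0.32 ± 0.06 in CX and 0.39 ± 0.04 in HIP. Cul2 fell by 0.22 ± 0.08 in CX, and its value of -0.00 in HIP was not called (edgeR adjusted p = 0.941). In cortical libraries Cul5 lay between 118.0 and 130.1 CPM at E17.5 and between 82.1 and 94.5 CPM at P7, with no overlap.

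Cul1 fell by 0.48 ± 0.10 in CX and 0.34 ± 0.11 in HIP between E17.5 and P7 and rose by 0.23 ± 0.03 in CB. Its embryonic forebrain libraries were widely spread, from 151.7 to 235.1 CPM in WT cortex. The mice with the name prefix E17_5_S3 were the highest, at 204.0 and 235.1 CPM in WT cortex and 226.9 and 211.1 CPM in WT hippocampus. The other WT mice lay between 135.2 and 182.6 CPM in E17.5 hippocampus, against 131.9 to 152.0 CPM at P7. A fit without both E17_5_S3 mice was not run. Cul4a was called at 1 of the 6 steps, with 0.10 ± 0.04 in CB up to P7. Cul3 was called at 4 of them, all small: -0.13, -0.12 and 0.08 in CX, HIP and CB up to P7 and 0.18 in HIP from P7 to P35. The call in HIP up to P7 was lost on leaving out any of 9 single replicates, the one in CX without E17.5 replicate 2, and the one in CB without any of 6.

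The RING partners rose in cerebellum between E17.5 and P7, Rbx1 by 0.26 ± 0.04 and Rnf7 by 0.30 ± 0.06. Over the same time Rbx1 fell by 0.46 ± 0.08 in cortex. Rnf7 rose later in the forebrain, by 0.47 ± 0.09 in CX and 0.54 ± 0.04 in HIP from P7 to P35. Its hippocampal libraries lay between 38.8 and 44.6 CPM at P7 and at 57.0, 59.9, 61.9, 63.2 and 65.2 CPM in adults, without overlap.

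**Figure D4:**
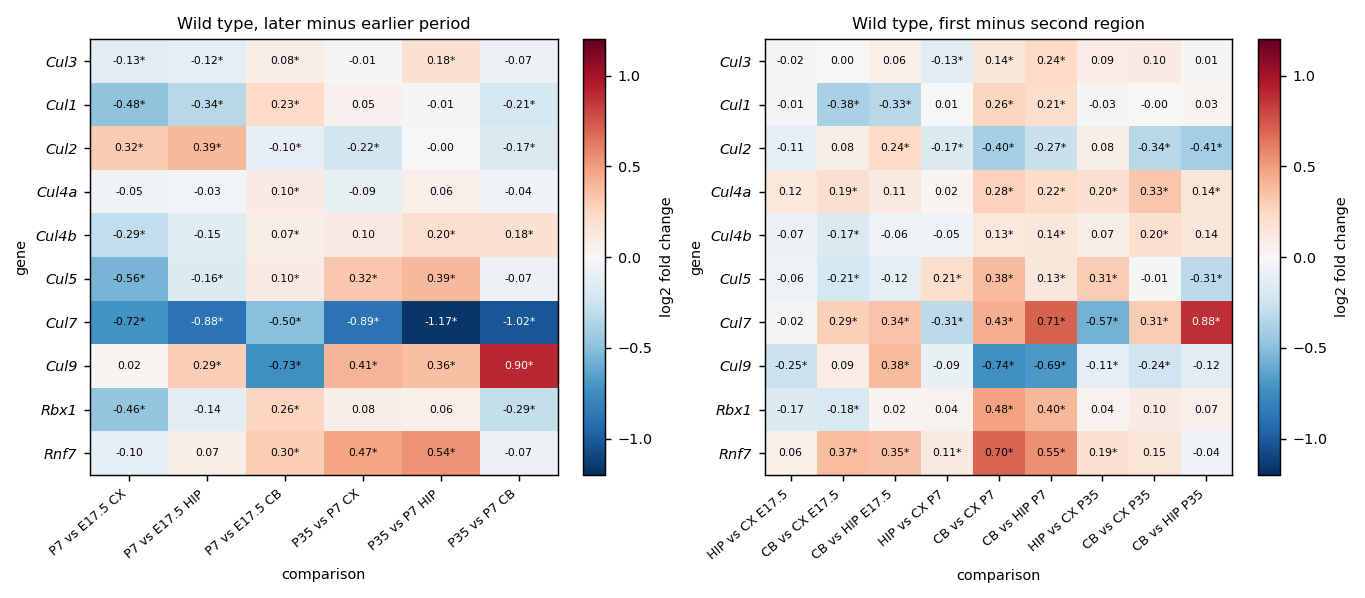
Log2 fold changes of the 10 members (rows) in WT mice for the 6 period comparisons (left, later minus earlier) and the 9 region comparisons (right, first-named minus second-named region), colored from blue (lower) to red (higher), with an asterisk where the edgeR adjusted p was at most 0.1. Cul7 is negative in all 6 period comparisons, and all 10 members carry an asterisk in both comparisons of P7 cerebellum.

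Regions were compared within mice. At E17.5, 1 of 10 members, Cul9, was called between HIP and CX (44.4% of all genes tested, and not without the mouse as block), 7 between CB and CX (63.1%) and 5 between CB and HIP (44.7%). At P7 the counts were 5 (59.9%), 10 (80.9%) and 10 (79.2%), and in adults 5 (57.7%), 5 (73.8%) and 4 (72.7%). The adult counts for cerebellum rest partly on mouse P35_17: without it 8 members were called against CX and 8 against HIP.

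P7 cerebellum had higher levels than cortex of both RING partners, Rnf7 by 0.70 ± 0.07 and Rbx1 by 0.48 ± 0.08 on the log2 scale. Cul7 was higher there by 0.43 ± 0.05, Cul5 by 0.38 ± 0.05, Cul4a by 0.28 ± 0.05 and Cul1 by 0.26 ± 0.05. Cul3 was higher by 0.14 ± 0.05. Cul9 was lower by 0.74 (log2 fold change -0.74 ± 0.07) and Cul2 by 0.40 (-0.40 ± 0.06). Cul7 was higher in cerebellum than in either forebrain region at all 3 ages, by 0.29 to 0.43 against CX and by 0.34 to 0.88 against HIP. Against hippocampus, P7 cerebellum was higher in Cul7 (log2 fold change 0.71 ± 0.04), Rnf7 (0.55 ± 0.05) and Rbx1 (0.40 ± 0.05) and lower in Cul9 (-0.69 ± 0.04). In adult hippocampus Cul7 was at its lowest, with WT libraries at 23.3, 23.9, 25.2, 27.3 and 28.96 CPM, below all adult cortical libraries.

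Hippocampus and cortex were compared in the same way. Cul5 was higher in hippocampus at P7 (0.21 ± 0.04) and in adults (0.31 ± 0.05), and Cul7 was lower at both ages (-0.31 ± 0.04 and -0.57 ± 0.06). Cul2 was lower at P7 (-0.17 ± 0.03), as was Cul3 (-0.13 ± 0.04), while in adults the values of 0.08 and 0.09 for these genes were not called. Cul4a (0.20 ± 0.04) and Rnf7 (0.19 ± 0.05) were higher in adult hippocampus.

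The genes whose WT pattern over the 9 group means of log2 CPM was most like that of Cul3 were Mtrex (Pearson r = 0.88), Dnajc19 (0.88), 1190007I07Rik (0.87), Anp32a (0.84) and Tmem11 (0.84), out of 12629 genes compared. Among the members the r with Cul3 was 0.75 for Rbx1, 0.69 for Cul4a, 0.64 for Cul4b and 0.57 for Rnf7, and -0.38 for Cul2. The 9 points share mice within a period and span a 1.19-fold range of Cul3, so these values are a description.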

How the data were processed

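Per the labels and the study's methods, the authors ribodepleted total RNA, sequenced stranded paired-end libraries, trimmed reads with cutadapt 1.14, aligned them with STAR 2.5.3a to GRCm38.p5 and quantified genes with RSEM 1.3. They deposited expected counts for 53465 genes, without normalization. 5.76% of the values were not whole, and all were rounded here. Gene models, coordinates and lengths came from GENCODE M21 on GRCm38, which held 53360 of the genes, and the guide sequence came from the study's supplementary tables.

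Counts were tested in R 4.3.3 with edgeR 4.0.16 (filterByExpr, minimum count 10 and minimum total 15, TMM, quasi-likelihood test) for each period and region, and between WT groups. Limma 3.58.1 with voom gave the mean over groups (mouse as block, correlation 0.103). SE is the absolute log2 fold change over the square root of F. Alternatives were DESeq2 1.42.0, upper-quartile factors, no filter, RUVs written for this purpose (the study used RUVs), Xist as a covariate, blocks and leaving out replicates. The methods were tested on simulated data.

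Replicates are separate mice by their labels. The 270 replicate pairs differed by at least 4.71 times the chi-square per gene that sampling alone gives. Replicate numbers were taken to pair WT and HET mice where every same-numbered pair deviated together (correlation over 0.1), which held in E17.5 CX (0.113 to 0.759). Neither the main test of E17.5 CX nor the limma fit over all groups used this pairing or the name prefix. For E17.5 CX the fit with the replicate block is given as an alternative. With the block, Rnf7 had the lowest adjusted p among the other members, 0.373 (edgeR), against 0.991 without it. The same mice gave E17.5 HIP and CB, where 5 of 6 pairs passed (medians 0.335 and 0.292). All 10 members were named whatever their values. The members, marker lists and further ligase genes were chosen with earlier results of these data known. Some marker genes are not reported here.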

Additional observations from a re-analysis of the deposited data

Results flagged for a closer look

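Single libraries far from the rest of their group were sought in the 180 combinations of member and group by Dixon's test, which flags about 1 in 20 by chance. It flagged 13 (7.22%).

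In adult WT cerebellum, mouse P35_17 (replicate 3) was far below the other libraries in Cul2 at 44.8 CPM, Rbx1 at 83.1 CPM and Rnf7 at 42.2 CPM, and far above them in Cul7 at 58.3 CPM. In the same group Cul4b was highest in WT replicate 5, at 59.5 CPM, and among HET libraries Cul4a was highest in replicate 6, at 115 CPM. Mouse P7_C2_2 (replicate 4) gave low values of Rbx1 and Rnf7 in WT cortex, 71.3 and 29.9 CPM, and of Cul2 and Rbx1 in WT hippocampus, 63.6 and 83.3 CPM.

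At E17.5 the values flagged, all high, were Cul2 in WT hippocampus replicate 5 (61.0 CPM) and HET cerebellum replicate 3 (66.4 CPM), and Rnf7 in HET cortex replicate 4 (57.8 CPM).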

How the results depend on the processing

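The number of members besides Cul3 called in a genotype comparison was 0 under each alternative run. On leaving out replicates, all 1020 member values in the single groups kept their side of the threshold, as did 809 of 810 under the other alternatives. The exception was Cul3 in P35 CB with the replicate block (log2 fold change -0.73, adjusted p = 0.114), where 4 of 5 same-numbered pairs correlated above 0.1. With the replicate block 55 genes were called in E17.5 CX in place of 1, no other member among them, and 1 each in E17.5 HIP and CB. Uncalled values changed sign in 87 and 44 of these. In the mean over groups, Rbx1 was 0.00747 under upper-quartile normalization, against -0.0019 with TMM. Leaving out 1 mouse gave a range of -0.0123 to 0.0116 for Rbx1 and -0.0408 to 0.00707 for Cul9. The number of genes called in the mean, 14, was 24 under upper-quartile factors, 48 without the mouse block, 26 with the 2 excluded mice, 68 with edgeR and 4 to 29 on leaving out 1 mouse. In single groups it reached 218 with DESeq2, 150 with the likelihood ratio test, and 189 and 472 with 3 and 5 RUVs factors. Members called between HIP and CX at E17.5 were 0 without the mouse block, and 0 to 2 on leaving out a mouse. The range was 3 to 6 for CB against HIP at E17.5, 4 to 8 for CB against CX at P35 and 3 to 8 for CB against HIP at P35. In the WT period comparisons, 32 of 690 member values lost their call and 5 gained one on leaving out replicates. Under the other alternatives 8 of 240 lost it and 3 gained one. In the region comparisons 26 of 510 lost it and 12 gained one on leaving out a mouse, and 7 and 2 of 360 under the other alternatives. The causes were not tested. Reads shared between genes limit Rbx1 and Rnf7, and 5 or 6 mice a group limit single-group values.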

Other observations

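The 6 libraries of the mice left out of the comparisons gave Cul3 levels as follows. Mouse P35_22, labelled HET, had 95.5 CPM in CX, 98.3 in HIP and 117.1 in CB. Mouse P35_23, labelled WT, had 195.3 CPM in CX, 200.5 in HIP and 221.2 in CB. The HET libraries of the comparisons ran from 92.6 to 99.9 CPM in adult CX, and the WT libraries from 161.5 to 203.1 CPM. Cul7 lay at 36.8, 30.5 and 46.7 CPM in CX, HIP and CB of P35_22 and at 33.9, 22.9 and 41.3 CPM in P35_23. Cul9 in CX was at 94.4 and 73.0 CPM.

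In embryonic forebrain, levels of Cul1 and Cul9 moved with the name prefix of the mice in both genotypes. In E17.5 CX, mice with the name prefix E17_5_S3 (replicates 3 and 4) had Cul1 at 204 and 235 CPM in WT and at 229 and 273 CPM in HET, against 152 to 211 CPM in mice of the prefixes E17_5_S2 and E17_5_S4. Their Cul9 was at 56.0 and 45.6 CPM in WT and at 46.9 and 35.4 CPM in HET, against 56.0 to 71.3 CPM. In E17.5 CB the same mice had Cul1 between 133.9 and 146.4 CPM, within or close to the 134.7 to 149.5 CPM of the others. What the prefix stands for is not given with the labels, and the difference was not tested.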
